A study of Mus musculus with 2 samples.

Results

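Solute carriers are membrane proteins that move nutrients, ions, metabolites and vitamins across the plasma membrane and the membranes of organelles, and their genes carry symbols that begin with Slc and a family number. The genes described here are the solute carrier genes with a clear signal in RAW264.7 cells, an established mouse macrophage cell line. They were chosen by signal: the rule took gene symbols that start with Slc and a digit, read by a probe set with 1 gene symbol, whose log2 signal reached 5.5 on at least 1 of 2 Affymetrix arrays. Slc40a1, Slc11a1, Slc11a2 and Slc7a11 were left out by name. The choice gave 85 genes of 361 measured Slc symbols and of 22180 named genes in all. Since the rule read the same signals that are compared, all values below are descriptions.

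The 2 groups had 1 array each. One came from cells labelled HuR-deficient and the other from wildtype cells. Both cultures had been transfected for 8 hours with poly(I:C) of high molecular weight, a double-stranded RNA made to resemble viral RNA, in lipofectamine, a lipid reagent, at 1 mg/ml as the labels state it. No unstimulated culture was analysed here, and the labels do not say how HuR was removed or whether the line is 1 clone. HuR is the product of Elavl1 and binds U-rich and AU-rich stretches in many mRNAs. Each difference is the log2 signal of the array labelled HuR-deficient less that of the wildtype array. With no replicates, no significance test was possible, and fewer cells with a transcript cannot be told apart from less of it per cell.

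Activated macrophages change their metabolism, and carriers set which fuels, amino acids and metals reach each compartment. Amino acid carriers feed growth signalling and arginine use, glucose carriers feed glycolysis, and zinc and copper carriers are part of nutritional immunity. Carriers of the lysosome also return digested peptides, heme and nucleosides to the cytosol, and some of them act close to the Toll-like receptors of endosomes.

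Elavl1 had a signal of 7.75 on the array labelled HuR-deficient and 7.68 on the wildtype array, a difference of 0.07. It therefore does not tell the arrays apart, and the labels do not say whether its probe set covers the disrupted sequence. Of 8 macrophage markers, 7 reached 5.5, including Lyz2 (12.20 labelled HuR-deficient, 12.34 wildtype) and Cd68 (11.34 labelled HuR-deficient, 11.55 wildtype). Itgam stayed below 5.5 on both arrays (4.53 labelled HuR-deficient, 4.86 wildtype). Adgre1, the F4/80 gene, reached 5.5 on the array labelled HuR-deficient alone (6.51, against 4.94 wildtype), a difference of 1.57. None of the measured T cell, B cell, fibroblast, epithelial and endothelial markers reached 5.5. The summed linear signal of 4 T cell markers was 70.0 on the array labelled HuR-deficient and 62.8 on the wildtype array. For 3 B cell markers it was 40.3 labelled HuR-deficient and 43.9 wildtype, for 4 fibroblast markers 70.6 labelled HuR-deficient and 82.5 wildtype, for 4 epithelial markers 75.8 labelled HuR-deficient and 99.4 wildtype, and for 4 endothelial markers 77.5 labelled HuR-deficient and 81.4 wildtype. The sum of the 8 macrophage markers was 14074 labelled HuR-deficient and 14270 wildtype. The part of the marker differences in the results below was not tested.

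The 85 genes came from 32 of 51 measured Slc families, and 80 of them encode carriers. The other 5 share only the symbol: the scaffold genes Slc9a3r1 and Slc9a3r2, Slc7a6os, Slc4a1ap and the pseudogene Slc2a4rg-ps. Carriers of the SLC25 family, most of them mitochondrial, passed the floor most often, with 20 of 46 measured genes (43.5%). Zinc, copper and magnesium carriers followed with 11 of 27 (40.7%), and the SLC35 family, which holds the nucleotide sugar carriers, with 10 of 26 (38.5%). Of the amino acid and peptide carriers 16 of 68 passed, and of the carriers of monocarboxylates and other organic ions 5 of 64 (7.81%). The 68 include the opposite-strand genes Slc36a1os and Slc6a19os, and the 64 include Slc13a2os. These encode no carrier and lay below the floor. Placed by family number, Slc6a8 and Slc6a4, the creatine and serotonin transporter genes, are also among the 68. The ion exchangers for sodium, protons, calcium, chloride and bicarbonate passed in 3 of 35 cases. A gene below the floor cannot be called absent, since no detection calls were used and probe sets differ in how brightly they read a transcript.

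**Figure D1:**
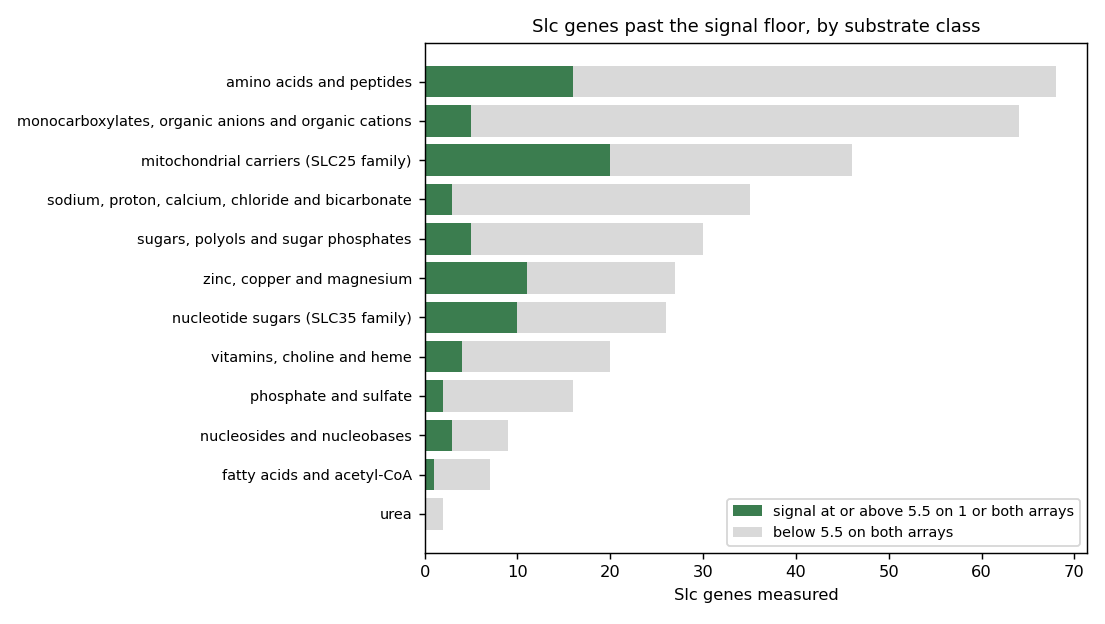
Number of measured Slc genes in each substrate class (horizontal axis, genes), split into those with a log2 signal of at least 5.5 on 1 or both arrays (green) and those below it on both (grey). The 5 genes past the floor that are no carriers, the 4 left out by name and 2 of family 66 are not drawn. The opposite-strand genes Slc36a1os, Slc6a19os and Slc13a2os are counted in the classes of their families. The SLC25 bar holds 20 genes past the floor of 46.

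Of the 85 genes, 66 reached 5.5 on both arrays, 9 on the array labelled HuR-deficient alone and 10 on the wildtype array alone. A gene past the floor on 1 array alone could only be higher on that array. Just inside the floor lay Slc25a36 (higher value 5.51), Slc2a4rg-ps (5.52) and Slc33a1 (5.53), and just outside it Slc35f6 (5.49), Slc9a8 (5.48) and Slc25a22 (5.48). The members' signals ran between 4.92 and 11.79 on the array labelled HuR-deficient and between 4.83 and 11.88 on the wildtype array, with medians of 6.28 labelled HuR-deficient and 6.27 wildtype. Across the 85 genes the arrays correlated with a Pearson r of 0.968, a value set largely by differences between probe sets that both arrays share.

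Most solute carrier genes differed by less than 1.5-fold between the arrays. The median difference was -0.11, against -0.01 for the 6361 named genes that reached the same floor. Differences were below 0 for 52 genes (61.2%), above 0 for 31 (36.5%) and exactly 0 for 2, while of all genes past the floor 51.6% lay below 0 and 47.4% above. With no floor, 47.6% of 357 Slc genes lay below 0, against 46.3% of all named genes. At 2-fold or more, 1 solute carrier gene was lower (1.18%, against 1.41% of all genes past the floor) and 0 were higher (against 1.01%). At 1.5-fold or more, 5 were lower (5.88%, against 5.88%) and 2 higher (2.35%, against 4.65%). The shares past either fold on the lower side were thus near those of all genes, and 43 of the 85 genes (50.6%) differed by no more than 0.25 in either direction, against 56.6% of all genes past the floor.

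**Figure D2:**
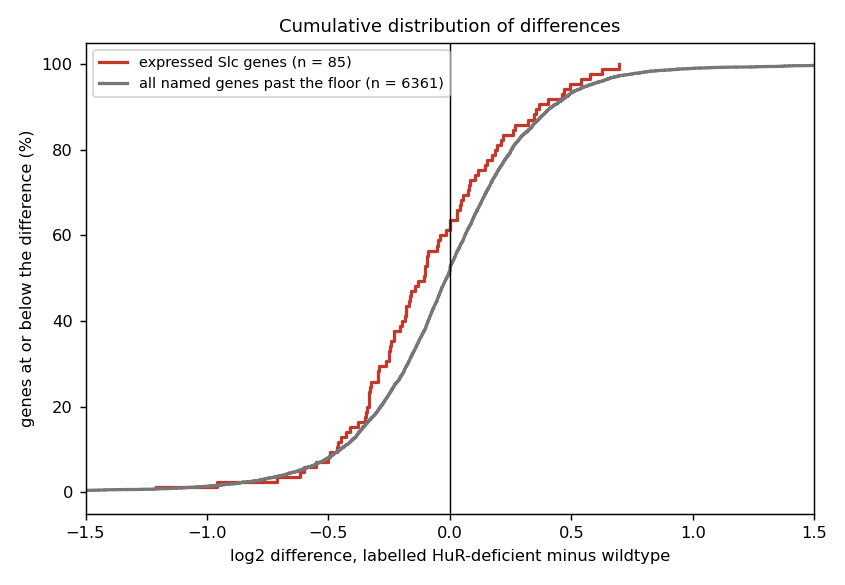
Cumulative share of genes (vertical axis, %) at or below a given log2 difference, array labelled HuR-deficient minus wildtype array (horizontal axis), for the 85 expressed Slc genes (red) and the 6361 named genes past the same floor (grey). The red curve lies above the grey one around 0, where 61.2% of Slc genes and 51.6% of all genes are below 0, and both tails run close together on the lower side.

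The gene with the largest difference was Slc23a2, which encodes the sodium-dependent vitamin C transporter that most cells use to take up ascorbate. Its signal was 7.62 on the array labelled HuR-deficient and 8.83 on the wildtype array, a difference of -1.21 or 2.31-fold lower. Of the 500 genes nearest in mean signal, 2.0% differed by at least as much, and their robust SD was 0.30. A second probe set of Slc23a2 gave 4.81 on the array labelled HuR-deficient and 5.77 on the wildtype array, a difference of -0.96. Both probe sets read the same RNA of each culture, so they check the reading and not the biology.

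Next came Slc6a8, the creatine transporter gene, with 4.92 on the array labelled HuR-deficient and 5.88 on the wildtype array, a difference of -0.96. It passed the floor through the wildtype array alone, and a difference of that size or more was seen in 1.4% of the 500 genes nearest in signal. Slc38a2, which encodes the amino acid carrier SNAT2 and is known to be induced when amino acids are short, had 5.97 on the array labelled HuR-deficient and 6.68 on the wildtype array, a difference of -0.71. Slc48a1, the gene of a carrier that passes heme out of the lysosome, differed by -0.62 (5.83 labelled HuR-deficient, 6.45 wildtype), and Slc30a5, the gene of a zinc carrier of the Golgi, by -0.60 (6.74 labelled HuR-deficient, 7.34 wildtype). These 5 genes are the ones at least 1.5-fold lower. For the last 3, between 5.6% and 9.8% of the nearest genes differed by as much.

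On the other side, the pair past 1.5-fold consisted of Slc2a4rg-ps, a pseudogene, with 5.52 on the array labelled HuR-deficient and 4.83 on the wildtype array, and Slc6a4, the serotonin transporter gene, with 5.71 labelled HuR-deficient and 5.08 wildtype. Their differences were 0.70 and 0.63, and both passed the floor through the array labelled HuR-deficient alone. Slc25a38, which encodes the mitochondrial glycine carrier needed for heme synthesis, differed by 0.58 (5.62 labelled HuR-deficient, 5.05 wildtype). It too passed the floor through the array labelled HuR-deficient alone. Slc15a3, the gene of a lysosomal carrier for histidine and small peptides, stood well above the floor on both arrays, with 9.55 on the array labelled HuR-deficient and 9.01 on the wildtype array, a difference of 0.54. Slc25a28, which encodes the mitochondrial iron importer mitoferrin 2, differed by 0.49 (7.99 labelled HuR-deficient, 7.49 wildtype). Between 6.6% and 15.4% of the nearest genes differed by as much as these 5.

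**Figure D3:**
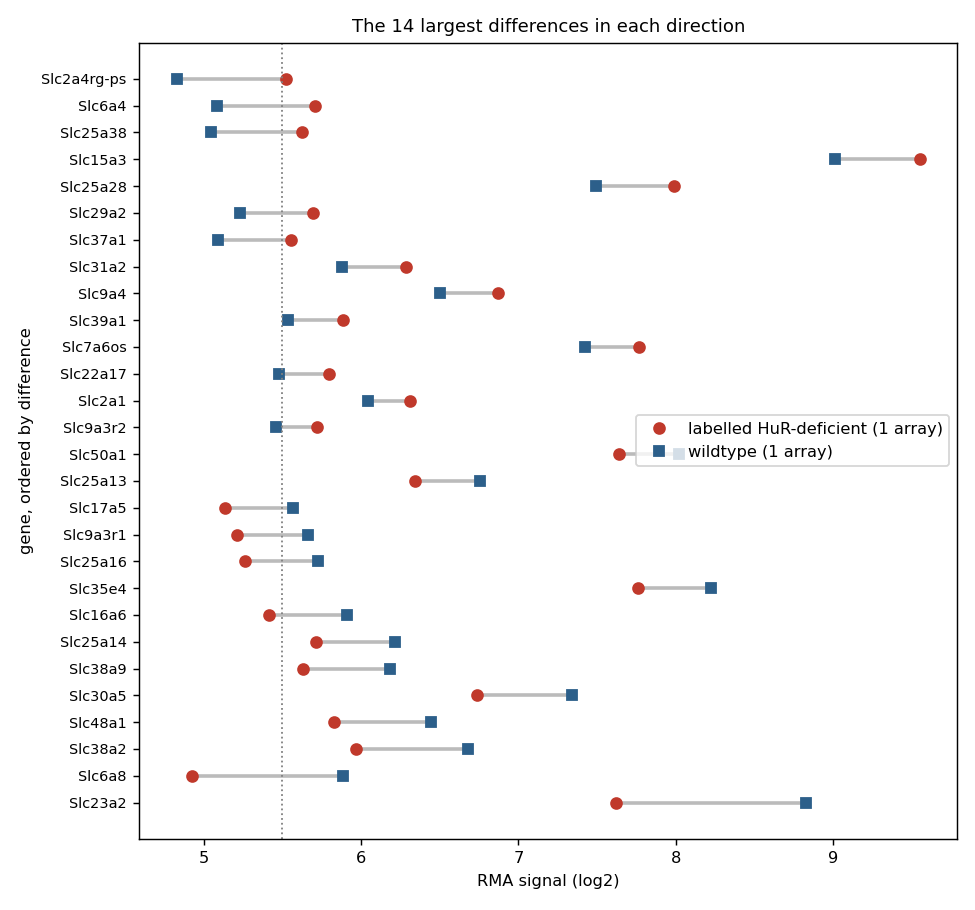
RMA log2 signal (horizontal axis) of the 14 highest and the 14 lowest solute carrier genes by difference, on the array labelled HuR-deficient (red circles) and the wildtype array (blue squares), 1 array each; the dotted line is the floor of 5.5. Slc23a2 at the bottom has the widest gap, 7.62 against 8.83, while most gaps on the higher side are under 0.5.

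Stretches of upstream DNA are shown for 4 genes, because the cells had received double-stranded RNA and stress and nutrient elements are known in carrier promoters. Sequences are RefSeq's, build GRCm38.p6, each the 100 bases before the annotated gene start, and 68 of the 85 genes matched the promoter table by gene ID. Capitals mark a motif match on either strand. Slc23a2 and Slc38a2 are the lowest genes with a match among those searched. Slc37a1 and Slc25a15 are the 2 members with the interferon element.
Slc23a2, chr2:132145321-132145420, minus strand, capitals a metal response element: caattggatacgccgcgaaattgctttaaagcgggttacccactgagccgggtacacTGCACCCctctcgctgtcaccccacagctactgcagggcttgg
Slc38a2, chr15:96699729-96699828, minus strand, capitals an antioxidant response element: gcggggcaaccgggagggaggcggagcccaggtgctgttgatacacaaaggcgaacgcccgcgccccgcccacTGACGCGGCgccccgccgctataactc
Slc37a1, chr17:31296124-31296223, plus strand, capitals an interferon-stimulated response element: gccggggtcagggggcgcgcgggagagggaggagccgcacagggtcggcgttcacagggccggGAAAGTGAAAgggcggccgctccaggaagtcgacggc
Slc25a15, chr8:22398622-22398721, minus strand, capitals an interferon-stimulated response element read on the opposite strand: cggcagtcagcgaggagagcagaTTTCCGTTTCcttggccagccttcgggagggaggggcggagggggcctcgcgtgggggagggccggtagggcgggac

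The motifs were searched on both strands from 250 bases before to 50 after the start, and a gene counted once if any of its windows held a match. The interferon-stimulated response element (2 copies of GAAA with any 2 bases between them) was found in 2 of 68 members (2.94%), against 4.67% of genes past the floor and 3.99% of all genes in the table. Those were Slc37a1, a glucose 6-phosphate carrier gene with a difference of 0.46, and Slc25a15, the mitochondrial ornithine carrier gene, with 0.10. The antioxidant response element (TGACNNNGC) was in 18 members (26.5%, against 16.6% of genes past the floor and 14% of all genes), with a median difference of -0.14 in these and -0.11 in the 50 without it. The metal response element was searched as the loose run TGCNCNC, which most promoters hold. That run was in 45 members (66.2%, against 61.6% of genes past the floor and 53.6% of all genes). The median was -0.11 with it and -0.09 without it. The amino acid response element (TGATGNAA) was in 2 members and in 2.99% of genes past the floor. The lysosomal CLEAR element (CACGTGAC) was in 5 (7.35%, against 5.24% of genes past the floor and 2.55% of all genes). Of these 5, 4 had a difference below 0, as had 37 of the 63 members without the element. A match is a run of letters and was not shown to be a binding site.

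Amino acid and peptide carriers formed the second largest class, with 16 genes, a median of -0.05, 8 below 0 and 7 above. The class followed family numbers and so also holds carriers of other substrates. Its lowest and highest genes, Slc6a8 for creatine (-0.96) and Slc6a4 for serotonin (0.63), are such carriers. Below Slc6a8 and Slc38a2 stood Slc38a9, which encodes the lysosomal arginine sensor of the growth kinase mTORC1, with 5.63 on the array labelled HuR-deficient and 6.19 on the wildtype array (difference -0.55). Slc16a10, an aromatic amino acid carrier gene, and Slc7a6, a light chain of the heteromeric carriers, differed by -0.33 each. The taurine transporter gene Slc6a6 had 7.82 labelled HuR-deficient and 8.01 wildtype, and the proton-coupled carrier gene Slc36a4 had 9.80 labelled HuR-deficient and 9.98 wildtype, each a difference of -0.18. Slc38a6 had the same value, 5.72, on both arrays. On the higher side stood Slc7a7 (0.07), Slc38a1 (0.08), Slc38a7 (0.11), the betaine and GABA transporter gene Slc6a12 (0.15), and Slc15a3 and Slc6a4 as given above. Slc38a7, like Slc6a4, passed the floor through the array labelled HuR-deficient alone, so the rule allowed it only a difference above 0.

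Slc1a5 encodes ASCT2, the main glutamine importer of many dividing cells. The probe set used for it gave 10.60 on the array labelled HuR-deficient and 10.38 on the wildtype array, a difference of 0.22, while its other probe set gave 9.12 labelled HuR-deficient and 9.37 wildtype, a difference of -0.26. The direction of Slc1a5 therefore depends on the probe set.

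Heteromeric amino acid carriers pair the heavy chain CD98, encoded by Slc3a2, with a light chain of the SLC7 family. Slc3a2 had 8.15 on the array labelled HuR-deficient and 8.24 on the wildtype array, a difference of -0.09. Of the 8 genes listed, all measured, 3 reached the floor (Slc3a2, Slc7a6 and Slc7a7), and 4 of the 8 were above 0 and 4 below. Slc7a5, the leucine-importing light chain LAT1, stayed below the floor at 4.22 labelled HuR-deficient and 3.88 wildtype. Of the amino acid carrier genes known to respond to the stress factor ATF4, 7 of 8 were measured, with a median of -0.17, 2 above 0 and 5 below. Of all named genes, 46.3% were below 0. Of the 7, 3 reached the floor (Slc1a5, Slc3a2 and Slc38a2), with a median of -0.09, 1 above 0 and 2 below. The 1 above 0 was Slc1a5, whose direction depends on the probe set. Slc38a2 was the one past 1.5-fold. Slc7a1, an arginine carrier gene whose mRNA is a known HuR target in human hepatoma cells, stayed below the floor at 4.45 on the array labelled HuR-deficient and 4.63 on the wildtype array.

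**Figure D4:**
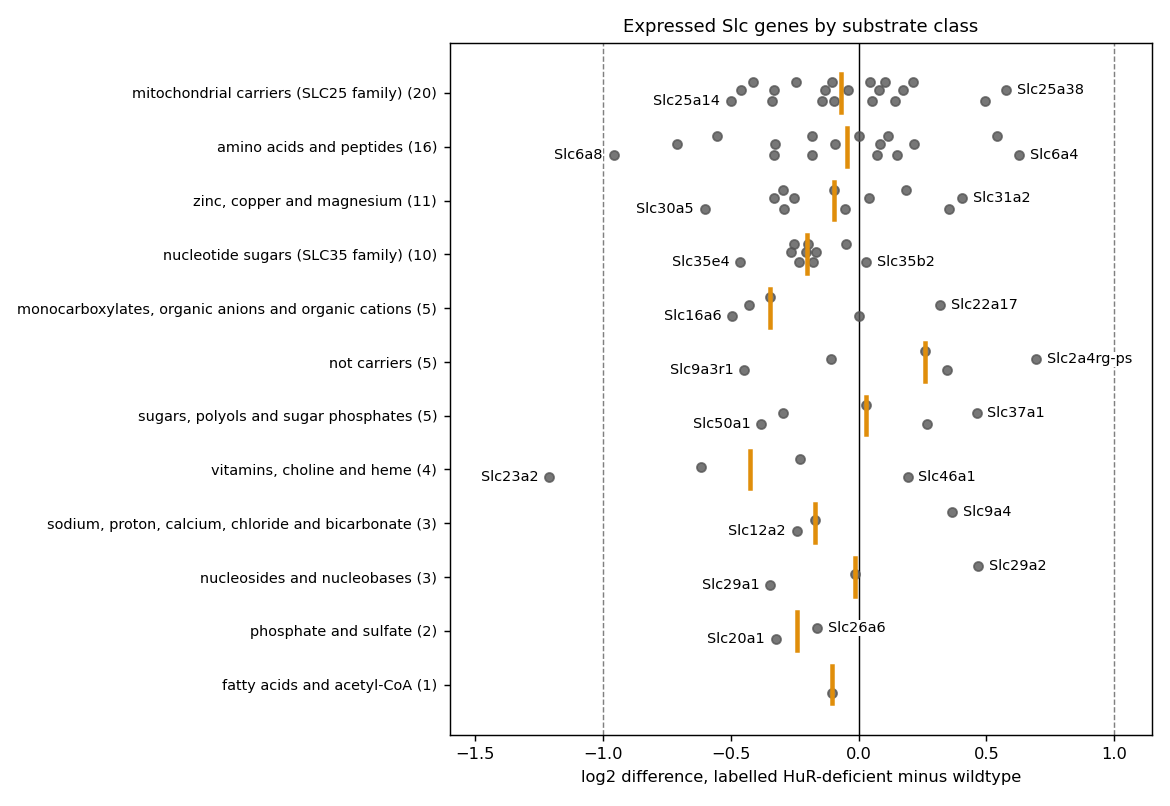
Log2 difference (horizontal axis, array labelled HuR-deficient minus wildtype array) of each of the 85 genes (grey points) in its substrate class (rows, number of genes in brackets), with the class median (orange bar) and 2-fold marked by dashed lines. Slc23a2 is the point beyond 2-fold, and 9 of 10 SLC35 genes lie left of 0. Among those 9, Slc35a1 and Slc35d1 passed the floor through the wildtype array alone.

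Mitochondrial carriers of the SLC25 family exchange metabolites, nucleotides and cofactors across the inner mitochondrial membrane. The 20 genes of the family, with the peroxisomal carrier gene Slc25a17 counted among them, had a median of -0.07. Of these, 11 were below 0 and 9 above, and they differed by at most 0.58 in size. The adenine nucleotide translocases Slc25a4 (9.22 labelled HuR-deficient, 9.35 wildtype) and Slc25a5 (11.79 labelled HuR-deficient, 11.88 wildtype) and the phosphate carrier Slc25a3 (8.62 labelled HuR-deficient, 8.57 wildtype), which together supply ATP synthase, differed by -0.13, -0.09 and 0.05. The lowest were Slc25a14 (-0.50), of the uncoupling protein group, and Slc25a16 (-0.46). In this family Slc25a16 and Slc25a32 passed the floor through the wildtype array alone. Slc25a36 and Slc25a38 passed it through the array labelled HuR-deficient alone. The rule thus fixed the direction of each.

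The remaining carriers of the SLC25 family lay on both sides of 0. Slc25a32, a folate and FAD carrier gene, differed by -0.34, the peroxisomal carrier gene Slc25a17 by -0.33, the oxoglutarate carrier gene Slc25a11 by -0.25 and the carnitine carrier gene Slc25a20 by -0.15. Slc25a39, the gene of the mitochondrial glutathione importer, differed by -0.10 and the pyrimidine nucleotide carrier gene Slc25a33 by -0.04. Higher were the methyl donor carrier gene Slc25a26 (0.04), Slc25a43 (0.08), Slc25a15 (0.10), the citrate carrier gene Slc25a1 (0.14), Slc25a36 (0.17), Slc25a12 (0.21), Slc25a28 (0.49) and Slc25a38 (0.58), the last with the largest difference of the family in size.

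The nucleotide sugar carriers of the SLC35 family bring activated sugars into the endoplasmic reticulum and Golgi for glycosylation. Of the whole family's 10 expressed genes, 9 were below 0 (51.6% of all genes past the floor were). The 10 were taken by family number and include genes with another or no settled substrate, as given below. The 10 differences had a median of -0.20 and ranged between -0.46 and 0.03. Slc35a1 and Slc35d1 passed the floor through the wildtype array alone, so the rule allowed them only a difference below 0. With probe sets averaged, 8 of the 10 were below 0, since the other probe set of Slc35a4 read higher (0.23) and its average was 0.03. Slc35b1, whose product brings ATP into the endoplasmic reticulum, had 10.72 on the array labelled HuR-deficient and 10.93 on the wildtype array, a difference of -0.21. Slc35a1, the CMP-sialic acid carrier gene, differed by -0.18, the UDP-galactose carrier gene Slc35a2 by -0.05 and Slc35d1, a carrier gene for UDP-glucuronic acid, by -0.25. Slc35b3 (-0.26), Slc35c2 (-0.23), Slc35b4 (-0.20) and Slc35a4 (-0.17) lay in the same narrow range. Slc35e4, which has no settled substrate, was lowest at 7.76 labelled HuR-deficient and 8.22 wildtype (difference -0.46), and its other probe set also read lower (-0.38). Slc35b2, the carrier gene for the sulfate donor PAPS, was the member above 0 at 0.03. Each single difference was small: the largest, that of Slc35e4, was reached or passed by 16.8% of the 500 genes nearest in signal.

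Among zinc, copper and magnesium carriers, 11 genes had a median of -0.10, with 7 below 0 and 4 above. The zinc carriers of the secretory pathway included Slc30a5, Slc30a7 (7.89 labelled HuR-deficient, 8.15 wildtype, difference -0.25) and Slc30a6 (-0.10), which load zinc into the Golgi, and Slc39a7 (-0.33) and Slc39a13 (0.19), which release it. Of the importers, Slc39a6 differed by -0.29, Slc39a14, known to be induced in acute inflammation, by -0.05 (5.79 labelled HuR-deficient, 5.84 wildtype), and Slc39a1 by 0.35. The copper carriers lay on opposite sides: Slc31a1, the main copper importer, differed by -0.30 (7.05 labelled HuR-deficient, 7.35 wildtype), and Slc31a2, a copper carrier of late endosomes and lysosomes, by 0.40 (6.28 labelled HuR-deficient, 5.88 wildtype). The magnesium carrier gene Slc41a1 differed by 0.04.

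Sugar carriers were few. Slc2a1, which encodes the glucose transporter GLUT1, had 6.31 on the array labelled HuR-deficient and 6.04 on the wildtype array, a difference of 0.27, within the robust SD of genes of like signal (0.33). Its other probe set gave 3.23 on the array labelled HuR-deficient and 3.25 on the wildtype array. Slc50a1, a glucose carrier of the SWEET family, differed by -0.38 (7.64 labelled HuR-deficient, 8.02 wildtype), and the glucose 6-phosphate carriers of the SLC37 family by 0.46 for Slc37a1, 0.03 for Slc37a2 and -0.30 for Slc37a4. Of 9 carrier genes tied to glycolysis and citrate export, 5 were above 0 and 4 below, with a median of 0.14. The 4 that reached the floor had a median of -0.05, with 2 above 0 and 2 below.

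Carriers of monocarboxylates and other organic ions had a median of -0.35 over 5 genes, which was -0.17 with the floor on the mean of both arrays and 0.063 with no floor. Of the 5, Slc16a6, Slc17a5 and Slc22a17 passed the floor through 1 array alone, the one where each was higher. Slc16a6 (5.42 labelled HuR-deficient, 5.91 wildtype), Slc17a5, which exports sialic acid from the lysosome (5.14 labelled HuR-deficient, 5.57 wildtype), and Slc16a13 (5.92 labelled HuR-deficient, 6.27 wildtype) were lower. Slc10a7 had the same value, 5.92, on both arrays, and Slc22a17, known as a receptor for lipocalin 2, was higher (5.80 labelled HuR-deficient, 5.48 wildtype). The lactate carrier genes Slc16a1 (4.96 labelled HuR-deficient, 4.70 wildtype) and Slc16a3 (4.94 labelled HuR-deficient, 4.97 wildtype) stayed below the floor.

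The vitamin, choline and heme carriers had a median of -0.42, which rests on 4 genes and was -0.14 at a floor of 5.0, -0.91 at 6.0 and -0.063 with no floor. Beside Slc23a2 and Slc48a1 these were the choline carrier gene Slc44a1 (-0.23) and the folate carrier gene Slc46a1 (0.19). Nucleoside carriers comprised Slc29a1 (5.67 labelled HuR-deficient, 6.01 wildtype), Slc29a2 (5.70 labelled HuR-deficient, 5.23 wildtype) and the purine nucleobase carrier gene Slc43a3 (6.39 labelled HuR-deficient, 6.41 wildtype). Of the ion carriers, the chloride cotransporter genes Slc12a2 and Slc12a4 differed by -0.24 and -0.17 and the sodium-proton exchanger gene Slc9a4 by 0.37. With its probe sets averaged, Slc12a4 differed by 0.080. The phosphate importer gene Slc20a1 differed by -0.32, the anion exchanger gene Slc26a6 by -0.16 and the acetyl-CoA carrier gene Slc33a1 by -0.10. Among the genes that are no carriers, Slc9a3r1 differed by -0.45, Slc4a1ap by -0.11, Slc9a3r2 by 0.26 and Slc7a6os by 0.34. Of the genes in this paragraph, Slc12a4, Slc33a1 and Slc9a3r1 passed the floor through the wildtype array alone. Slc29a2 and Slc9a3r2 passed it through the array labelled HuR-deficient alone. The rule thus fixed the direction of each in the probe set used.

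Some carriers of the same family and substrate lay on opposite sides of 0. The following pairs were picked after their values were seen and are not all that were compared. The equilibrative nucleoside carriers Slc29a2 and Slc29a1 differed by 0.47 and -0.35, a gap of 0.81. For the glucose 6-phosphate carriers Slc37a1 and Slc37a4 the gap was 0.76, and for the copper carriers Slc31a2 and Slc31a1 it was 0.70. Slc37a2, of the same family as Slc37a1 and Slc37a4, differed by 0.03. Slc29a2 and Slc37a1 passed the floor through the array labelled HuR-deficient alone, so the rule allowed them only a difference above 0. The mitochondrial aspartate-glutamate carriers Slc25a12 (7.13 labelled HuR-deficient, 6.92 wildtype) and Slc25a13 (6.34 labelled HuR-deficient, 6.76 wildtype) had a gap of 0.62. The adenine nucleotide translocases Slc25a4 and Slc25a5, by contrast, were 0.04 apart in their differences. The zinc carriers Slc30a5 and Slc30a6 were both below 0, at -0.60 and -0.10. No gap was tested.

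Of 13 genes of lysosomal and endosomal carriers, 7 were below 0 and 6 above, with a median of -0.36, and 6 reached the floor. Among all named genes, 46.3% were below 0, and 51.6% of those past the floor. Among those 6 carrier genes, with a median of -0.20, 3 were lower (Slc48a1, Slc38a9 and Slc17a5) and 3 higher (Slc15a3, Slc38a7 and Slc37a2). Slc17a5 passed the floor through the wildtype array alone and Slc38a7 through the array labelled HuR-deficient alone. The rule thus fixed the direction of both. Slc15a4, a lysosomal histidine carrier that endosomal Toll-like receptors need for interferon production, stayed below the floor at 4.31 on the array labelled HuR-deficient and 4.89 on the wildtype array. Slc29a3, a lysosomal nucleoside carrier, had 4.72 labelled HuR-deficient and 5.29 wildtype.

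Carriers and carrier partners that have no Slc symbol were set beside them. Of 26 listed, 23 were measured, with a median of -0.09, 9 above 0 and 13 below. Among all named genes, 46.3% were below 0. At 2-fold or more, 1 of the 23 was higher and 0 were lower. Of all 22180 named genes, 185 were higher by that much and 232 lower. The 11 past the floor had a median of -0.12, with 3 above 0 and 8 below, while 51.6% of all genes past the floor were below 0. Among the 8, Sfxn2 passed the floor through the wildtype array alone (5.41 labelled HuR-deficient, 5.53 wildtype). The gene past 2-fold was Atp1b3, a subunit of the sodium pump whose gradient drives many carriers, with 11.70 on the array labelled HuR-deficient and 10.42 on the wildtype array, a difference of 1.27. Mfsd2a, a lysolipid carrier gene, differed by 0.87 (6.77 labelled HuR-deficient, 5.90 wildtype), while the lysosomal carrier gene Mfsd1 (8.46 labelled HuR-deficient, 9.05 wildtype) and Mpc1, a subunit of the mitochondrial pyruvate carrier (5.95 labelled HuR-deficient, 6.55 wildtype), differed by -0.59 each. Bsg, which encodes the chaperone of lactate carriers, differed by 0.06.

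A check on the readings came from the 8 members with 2 probe sets. Both probe sets had the same direction for 3 genes (Slc23a2, Slc29a1 and Slc35e4), and opposite directions for 5 (Slc12a4, Slc1a5, Slc2a1, Slc35a4 and Slc36a4). Among the 5, the largest size was 0.33, for a probe set of Slc12a4.

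**Figure D5:**
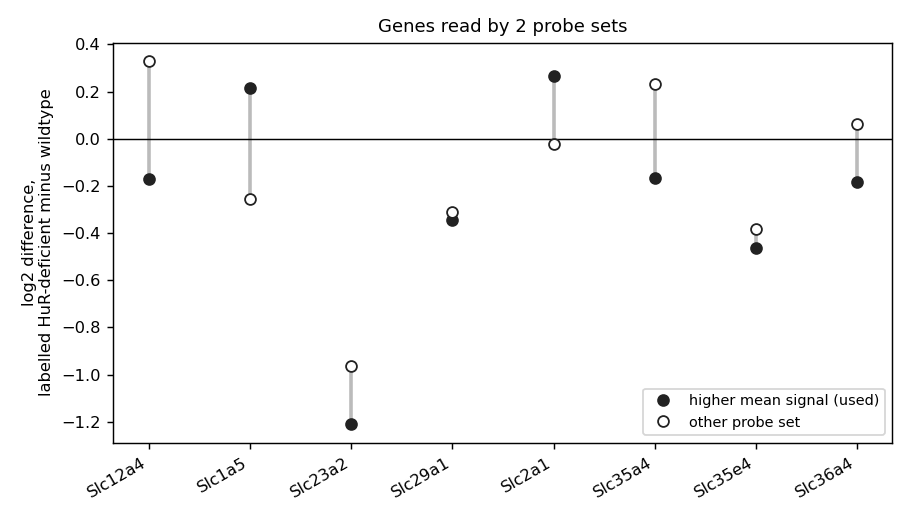
Log2 difference (vertical axis, array labelled HuR-deficient minus wildtype array) given by each probe set of the 8 solute carrier genes with 2 probe sets; filled points are the probe sets used and open points the others. The Slc23a2 points lie at -1.21 and -0.96, and the points of 5 genes fall on opposite sides of 0.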

How the data were processed

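Per the labels' protocols, RNA from both cultures was extracted in Trizol and biotinylated, and it was read on Affymetrix microarrays. The deposited log2 values come from RMA, per the submitters' processing notes. The scale is not stated and was read from the range of the values, 0.434 to 13.77. No version, annotation or genome build is named in the labels. RMA brings the arrays to a common distribution, so a change in total mRNA cannot be seen, and it compresses weak signals. The number of arrays, 1 per group, limits the precision.

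Of 41345 probe sets, 23521 had 1 symbol in the platform's gene table, 1814 several and 16010 none. A gene with several probe sets was read from the one with the highest mean. No p-value was computed. Each named gene was set beside the 500 genes nearest in mean signal, with a robust SD from the median absolute deviation. Substrate classes followed family numbers, with single exceptions; Slc4a1ap and Slc2a4rg-ps were moved out of them after the values were seen. The genes named are the 14 largest differences each way, the extremes and the highest mean signal of each class with at least 3 genes, list members and genes next to the floor; others were added after their values were seen. The members, lists and motifs were chosen with earlier results of these data known. The steps were tested on simulated data. The tools were matplotlib 3.10.9, statsmodels 0.14.6, pandas 2.3.3 and numpy 2.4.6 under Python 3.11.15.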

Additional observations from a re-analysis of the deposited data

How the results depend on the processing

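Alternatives tried were probe sets averaged, a loess trend removed (span 0.3), the arrays quantile normalised once more, centring on the median of all named genes, floors of 5.0, 6.0 or none, a floor on the mean of both arrays, and a 1.5-fold threshold. A median was taken as moved when it shifted by more than 0.1. With no floor, the median of 357 Slc genes was 0, 170 were above 0 and 170 below (47.6%, against 46.3% of all named genes), and past 2-fold 1 was higher and 2 were lower. At a floor of 6.0, 16 of 52 were above 0 and 36 below (69.2%, against 51.9% of all genes past it). At 1.5-fold, 2 were higher and 5 lower. Several class medians also moved. Organic ion carriers had -0.23 at a floor of 5.0, 0.063 with no floor and -0.17 with the floor on the mean. Vitamin, choline and heme carriers had -0.14 at 5.0, -0.91 at 6.0 and -0.063 with no floor. Zinc, copper and magnesium carriers had -0.29 at 6.0 and 0.019 with no floor. Nucleoside carriers had -0.18 at floors of 5.0 and 6.0 and with the floor on the mean. Ion carriers had 0.080 with probe sets averaged, 0.062 at 6.0 and 0.047 with no floor. Sugar carriers had 0.15 at 5.0, -0.13 with the floor on the mean, and 0.15 when Slc4a1ap and Slc2a4rg-ps were left in the classes of their family numbers, an alternative chosen after seeing the data. The genes that are no carriers had 0.12 at 6.0. A floor changes which genes are in a class, and averaging changes which probe sets are read; no other cause was tested. Of the 85 genes, 3 changed sign under an alternative, all with probe sets averaged: Slc1a5 to -0.02, Slc12a4 to 0.080 and Slc35a4 to 0.03. No paired analysis was possible because each group has 1 array. Weak signals near the floor limit what the values show.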

Other observations

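The secretory pathway can be viewed across substrate classes, in a grouping made after the values were seen. Of 18 expressed carrier genes of the endoplasmic reticulum and Golgi (the 10 SLC35 genes, Slc30a5, Slc30a6, Slc30a7, Slc39a7, Slc39a13, Slc33a1, Slc37a1 and Slc37a4), 15 were below 0 and 3 above, with a median difference of -0.20, while 51.6% of all genes past the floor were below 0. Slc37a2 (0.03), of the same family as Slc37a1 and Slc37a4, was listed with the lysosomal carriers and is not among the 18. Slc35a1, Slc35d1, Slc33a1 and Slc37a1 passed the floor through 1 array alone, the one where each was higher, so the rule fixed their direction. With probe sets averaged, Slc35a4 moved above 0 and 14 of the 18 were below. Slc30a5 was the one past 1.5-fold, and Slc37a1, at 0.46, the highest. Only a description of these 2 arrays can be drawn from this count.

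Below the floor, 272 Slc genes had a median difference of 0.02, with 139 above 0 and 118 below. Among them 1 was at least 2-fold lower and 1 higher (0.368% each): Slc9b1, a sodium-proton exchanger gene known from sperm, with 3.47 on the array labelled HuR-deficient and 4.55 on the wildtype array, and Slc22a29, an organic anion transporter family gene, with 2.55 labelled HuR-deficient and 1.45 wildtype. Of the 15819 named genes below the floor, 121 were higher by 2-fold or more (0.765%) and 142 lower (0.898%). A further 18 probe sets carry an Slc symbol together with another gene's and were given no gene name here; their differences lay between -0.72 and 0.64, with 10 below 0 and 7 above.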
